A study of Mus musculus with 6 samples.

Results

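The interleukin-1 family genes Il1a, Il1b, Il18, Il33, Il1rn, Il1r1, Il1rap, Il18r1, Il1rl1 and Il1r2 were followed in the mouse cornea before and after an alkali burn. These 10 genes were chosen by symbol and occupy 9 rows of a table of 28539, because Il18r1 and Il1rl1 share 1 row. They and the gene lists used below were chosen with earlier results of these data known. RNA-seq was made from whole corneas of female C57BL/6J mice aged 6 to 8 weeks, with 2 samples in each of 3 groups: untreated corneas (day 0) and corneas collected 5 and 15 days after the burn, the later of which the labels describe as a regression stage. The labels do not say how many corneas or animals went into a sample. Values are FPKM, a level per transcript length, given once per group and followed by the interval that the authors deposited with it, so no spread between samples can be shown.

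The interleukin-1 family holds cytokines that start and shape inflammation. IL-1α and IL-1β bind the same receptor chain, while IL-18 and IL-33 each bind another, and the complex signals once an accessory chain joins it. The system is restrained in several ways: IL-1 receptor antagonist occupies the receptor without signalling, and the type 2 receptor binds IL-1 but lacks a signalling domain. IL-1α and IL-33 are stored in barrier cells and released on injury, whereas IL-1β and IL-18 are made as precursors that caspase-1 cuts. In the cornea, IL-1 is known as an early signal between damaged epithelium and keratocytes.

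Among corneal markers, Aldh3a1, an abundant corneal enzyme, had an FPKM of 9150 at day 0, 303 at day 5 and 866 at day 15, and Kera, a keratocyte proteoglycan, 516, 11.2 and 16.2. Other markers of these cells did not share that course: Krt14, a basal epithelial keratin, stood at 179.6, 500.2 and 759.9, and Lum, another keratocyte proteoglycan, at 237, 243 and 286, and neither was called. Krt12, the keratin that defines corneal epithelium, is listed at 0 at day 0 with a status other than OK, so that this value is not a low level. Pigment and lens transcripts were also present, such as Mlana at 159 and Cryaa at 158 at day 0. The median half-width of the interval was 52.3% to 54.3% of FPKM in the 3 groups, over rows with FPKM of at least 5. In whole tissue, fewer cells of a type and less RNA per cell cannot be told apart. A row was called higher or lower only where the intervals of both groups did not overlap, the larger FPKM reached 1, and (FPKM + 1) differed by a log2 ratio of 1 or more.

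At day 5, Il1b, Il33, Il1rn, Il1r2, Il1r1 and the shared Il18r1 and Il1rl1 row were called higher than at day 0, which is 6 of 9 rows. None was called lower. Over the whole table, 3.42% of 15576 rows were called higher and 2.5% lower in this comparison. The median log2 ratio of the 9 rows was 1.86, against -0.09 over all rows tested. At day 15, Il1b, Il33, Il1rn and Il1r2 were called higher than at day 0, which is 4 of 9 rows, with none lower. The whole table gave 2.91% higher and 1.81% lower over 15186 rows, and the medians were 1.63 for the 9 rows and -0.10 for all. Between the later groups, Il1b was the only member called, lower at day 15 than at day 5, where 0.388% of 14683 rows were called lower and 0.395% higher. The comparisons share groups and are not independent of each other. When the groups were scaled to 13 reference genes, the table gave 431 rows higher and 508 lower at day 5 instead of 533 and 389, 313 and 390 at day 15 instead of 442 and 275, and 44 and 72 between the later groups instead of 58 and 57. None of the reference genes was itself called, but they were not level. Their values at day 5 ran from 0.741 (Rplp0) to 2.88 (Gusb) times those of day 0, with overlapping intervals.

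**Figure D1:**
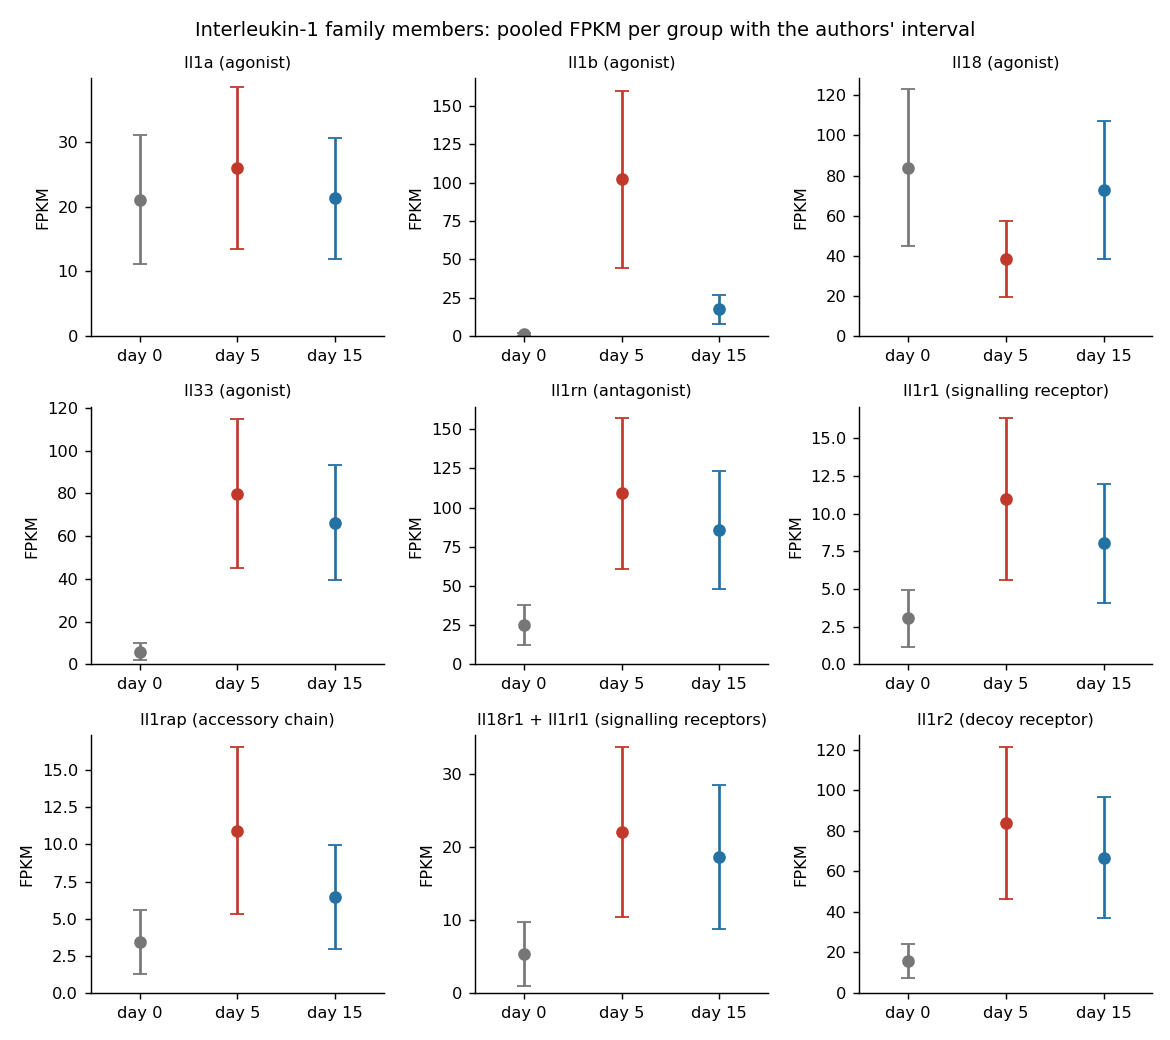
FPKM (vertical axes, each from 0) of the 9 rows at day 0, day 5 and day 15; points are values pooled over the samples of a group and bars the authors' intervals. Il1b stood at 1.04, 102 and 17.4, while Il33, Il1rn and Il1r2 had overlapping intervals at days 5 and 15.

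The agonists behaved differently from each other. Il1b, which encodes IL-1β, had an FPKM of 1.04 (0 to 2.19) at day 0, 102 (44.7 to 160.1) at day 5 and 17.4 (8.12 to 26.7) at day 15. No pair of these intervals overlapped. The fold between the point values at day 5 and day 0 was 98.0 and is imprecise, because the day 0 interval reaches 0. The lower bound at day 5 was still 20.4-fold above the upper bound at day 0. At day 15 the FPKM was 16.7-fold above day 0 and 5.88-fold below day 5. Il1b was the lowest of the 9 rows at day 0, the second highest at day 5 and the seventh highest at day 15. The excess over day 0 at day 15 was 16.2% of the excess at day 5.

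Il1a, which encodes the alarmin IL-1α, had an FPKM of 21.1 (11.2 to 31.1) at day 0, 26.0 (13.5 to 38.5) at day 5 and 21.3 (11.99 to 30.6) at day 15. All 3 intervals overlapped widely, with log2 ratios of 0.29 at day 5 and 0.01 at day 15 against day 0. Il1a and Il1b lie close together on the minus strand of chromosome 2, at 129299610 to 129309972 and 129364570 to 129371139 on mm10, with 54.6 kb between them. The ratio of Il1b to Il1a FPKM was 0.0495 at day 0, 3.94 at day 5 and 0.817 at day 15. Outer bounds that the intervals allow for this ratio were 0 to 0.196, 1.16 to 11.9 and 0.265 to 2.23, so that the day 0 range lay below both later ranges.

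The promoters of this pair are shown because the neighbouring genes had such unlike courses. Each sequence runs 5′ to 3′ from 250 bases before to 50 bases after the RefSeq start on GRCm38.p6, on the minus strand. Il1b lies at chr2:129371090-129371389 and Il1a at chr2:129309923-129310222. Capitals mark matches to a TATA box (TATAAA), an AP-1 motif (TGANTCA) or a C/EBP motif (TTNCNNAA), searched on both strands.
Il1b: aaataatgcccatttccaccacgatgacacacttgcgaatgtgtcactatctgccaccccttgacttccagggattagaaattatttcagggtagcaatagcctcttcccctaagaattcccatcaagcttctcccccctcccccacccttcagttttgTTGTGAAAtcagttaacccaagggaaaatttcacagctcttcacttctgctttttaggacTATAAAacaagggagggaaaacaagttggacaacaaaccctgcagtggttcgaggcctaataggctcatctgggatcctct
Il1a: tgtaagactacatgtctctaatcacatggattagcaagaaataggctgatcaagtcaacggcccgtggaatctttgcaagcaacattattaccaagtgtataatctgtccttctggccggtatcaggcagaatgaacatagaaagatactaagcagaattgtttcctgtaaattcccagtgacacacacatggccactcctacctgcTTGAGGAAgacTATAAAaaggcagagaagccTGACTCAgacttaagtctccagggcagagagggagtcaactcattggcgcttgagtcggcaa
Both promoters held a TATA box, with its first base 31 bases before the start in Il1b and 32 in Il1a, and both held a C/EBP motif. The AP-1 motif was found in the Il1a window only. Among 32851 promoters of this length, 13.6% held the TATA letters, 7.81% the AP-1 letters and 40.7% the C/EBP letters, which are common. The consensus motif of NF-κB, the transcription factor that the IL-1 receptor activates, was in neither window and in 8.46% of all promoters. All 10 genes had a promoter in the RefSeq table, 17 in all, some of which overlap. Of these 17, 1 held the NF-κB consensus (Il1r1), 2 the AP-1 motif (Il1a and Il1rn), 10 the C/EBP motif and 6 the TATA box. The TATA box was added to the search after the data were seen.

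Il33, the nuclear alarmin of epithelial and endothelial cells, had an FPKM of 6.02 (2.23 to 9.81) at day 0, 79.9 (44.96 to 114.8) at day 5 and 66.4 (39.3 to 93.5) at day 15. Both later groups lay above day 0 with a gap, by 13.3-fold and 11.0-fold between point values and by 4.58-fold and 4.003-fold between the nearest bounds. The later groups overlapped each other. At day 15, 81.7% of the day 5 excess over day 0 was present, against 16.2% for Il1b. This share was 79.7% for the shared Il18r1 and Il1rl1 row, 74.7% for Il1r2 and 72.3% for Il1rn. For Il1r1 it was 62.9% and for Il1rap 40.2%, so a high share was not particular to Il33. Some endothelial markers were higher in the same groups, with 6 of 10 called higher at both times and a summed FPKM of 23.9 at day 0, 92.1 at day 5 and 93.9 at day 15, and none at 0. Their median log2 ratio against day 0 was 1.40 at day 5 and 1.35 at day 15. Among them Aplnr, the apelin receptor, was 18.6-fold higher at day 5 than at day 0, and Cdh5, the junctional cadherin, 9.53-fold. Kdr, on the same list, stood at 3.66, 3.47 and 3.88 at days 0, 5 and 15 and was not called. Some conjunctival and goblet cell markers were higher too, with 5 of 9 called at day 5 and 7 of 9 at day 15, and Tff1 at 0 at day 0. Their summed FPKM was 1802, 4467 and 10909 at days 0, 5 and 15. Most of each sum was Krt4, at 757, 2070 and 6734, and Krt13, at 769, 765 and 2271, neither of which was called. Over the whole table, 3.42% of rows were called higher at day 5 and 2.91% at day 15 against day 0. The part of these cells in the values of Il33 and the other members was not tested.

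Il18, whose product acts on lymphocytes and is cut by caspase-1, had an FPKM of 84.0 (44.8 to 123) at day 0, 38.3 (19.2 to 57.4) at day 5 and 72.6 (38.2 to 106.9) at day 15. None of these intervals stood apart in any comparison, and the log2 ratio at day 5 against day 0 was -1.11. Il18 was the highest of the 9 rows in uninjured cornea and the fifth highest at day 5. Its interval at day 0 lay above that of the next member in order, Il1rn. Among corneal epithelial markers, 2 of 8 tested, Aldh3a1 and Upk1b, were called lower at day 5 and none higher, and none was called at day 15 against day 0. At both times 3 of the 8, Krt14, Cdh1 and Epcam, had values above day 0. The summed FPKM over 9 genes, of which Aldh3a1 was the largest part at day 0, was 11875 at day 0, 1848 at day 5 and 3161 at day 15, with Krt12 listed at 0 at day 0. Keratocyte markers were called lower in 4 of 8 cases at day 5, with sums of 5729, 2943 and 4064. Of the 8, 3 had values above day 0 at day 5, namely Lum, Col5a1 and Col1a1. Dcn, which was not called, was the largest part of these sums, at 3484, 1388 and 2104. Lens, pigment and muscle markers were called lower at day 5 in 4 of 11 cases, with sums of 680.3, 146 and 418. No marker of these 2 lists was at 0. Over the whole table, 2.5% of rows were called lower at day 5 against day 0. Whether this bears on Il18 was not tested.

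Il1rn, which encodes the IL-1 receptor antagonist, had an FPKM of 25.0 (12.3 to 37.7) at day 0, 109 (61.0 to 157) at day 5 and 85.8 (48.2 to 123.3) at day 15. Both later groups lay above day 0 without overlap, 4.36-fold and 3.43-fold between point values. Il1rn was the highest of the 9 rows at days 5 and 15. It was 23.9 times Il1b at day 0, 1.06 times at day 5 and 4.92 times at day 15. The interval bounds allow at least 5.63 at day 0, 0.381 to 3.52 at day 5 and 1.80 to 15.2 at day 15. Day 5 thus stood below day 0 even at the outer bounds, while day 15 overlapped both. Set against Il1a and Il1b summed, Il1rn was 1.13 times as high at day 0, 0.849 times at day 5 and 2.21 times at day 15, with overlapping bounds.

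Il1r2, the decoy receptor, had an FPKM of 15.8 (7.32 to 24.3) at day 0, 83.9 (46.5 to 121) at day 5 and 66.7 (37.0 to 96.4) at day 15. Both later groups lay above day 0 without overlap, 5.30-fold and 4.21-fold between point values, and overlapped each other. Il1r1, the signalling receptor for IL-1α and IL-1β, had 3.05 (1.18 to 4.92), 11.0 (5.63 to 16.3) and 8.03 (4.09 to 11.98). It was 3.59-fold higher at day 5 than at day 0 and called, with a narrow gap of 1.14-fold between the nearest bounds. At day 15 it was 2.63-fold higher and its interval overlapped that of day 0. The decoy was thus the more abundant transcript of the pair in each group, at 5.18 times Il1r1 at day 0, 7.65 times at day 5 and 8.30 times at day 15. The lower bounds of this ratio were 1.49, 2.85 and 3.09, all above parity, and the 3 ranges overlapped. Neutrophils and monocytes also carry the decoy, and the values of their markers are given with the processing genes.

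Il1rap, the accessory chain shared by the IL-1, IL-33 and IL-36 receptors, had an FPKM of 3.45 (1.29 to 5.60) at day 0, 10.9 (5.29 to 16.6) at day 5 and 6.46 (2.93 to 9.98) at day 15. It was 3.17-fold higher at day 5 than at day 0 but was not called, since the lower bound at day 5 was 0.944 of the upper bound at day 0. Il1r1 and Il1rap were at similar levels, with a ratio of Il1r1 to Il1rap of 0.886, 1.003 and 1.24 at days 0, 5 and 15.

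The shared row of Il18r1 and Il1rl1 had an FPKM of 5.36 (0.962 to 9.76) at day 0, 22.04 (10.4 to 33.6) at day 5 and 18.7 (8.79 to 28.5) at day 15. Il18r1 encodes the ligand-binding chain of the IL-18 receptor, and Il1rl1 encodes ST2, the IL-33 receptor, which also has a soluble form that acts as a decoy. The genes lie end to end on chromosome 1, at 40465552 to 40500854 and 40429570 to 40465415, with 0.136 kb between them, so that their parts of this value cannot be told apart. The row was 4.11-fold higher at day 5 than at day 0 and called, with a gap of 1.07-fold between the nearest bounds. At day 15 it was 3.48-fold higher and was not called. With the groups scaled to reference genes, Il1r1 and this row were no longer called at day 5.

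**Figure D2:**
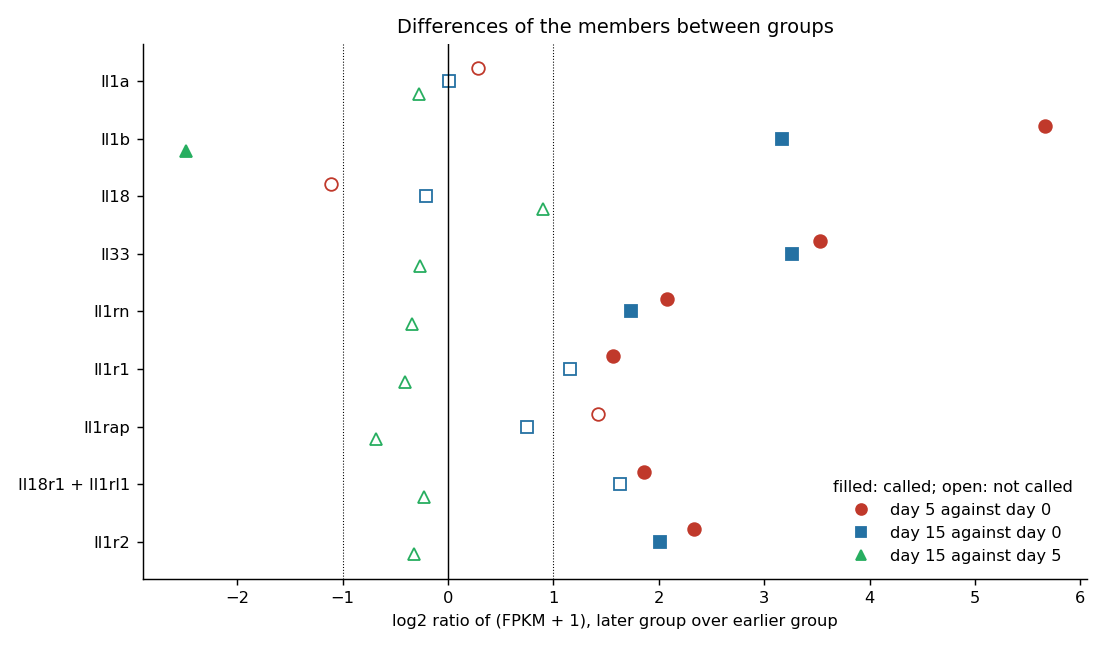
Log2 ratio of (FPKM + 1) for each row in the 3 comparisons, with day 5 against day 0 as circles, day 15 against day 0 as squares and day 15 against day 5 as triangles; filled symbols are called and dotted lines mark 1 and -1. Il1b reached 5.66 for day 5 over day 0 and -2.49 for day 15 over day 5, and no other triangle is filled.

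The order of levels changed between the groups. At day 0 it ran Il18, Il1rn, Il1a, Il1r2, Il33, the shared Il18r1 and Il1rl1 row, Il1rap, Il1r1 and Il1b. Of the 8 pairs of neighbours in that order, 7 had overlapping intervals, and only Il18 and Il1rn did not. At day 5 it ran Il1rn, Il1b, Il1r2, Il33, Il18, Il1a, the shared row, Il1r1 and Il1rap, and all 8 pairs overlapped. At day 15 it ran Il1rn, Il18, Il1r2, Il33, Il1a, the shared row, Il1b, Il1r1 and Il1rap, with 7 of 8 pairs overlapping. There, Il33 stood above Il1a without overlap.

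**Figure D3:**
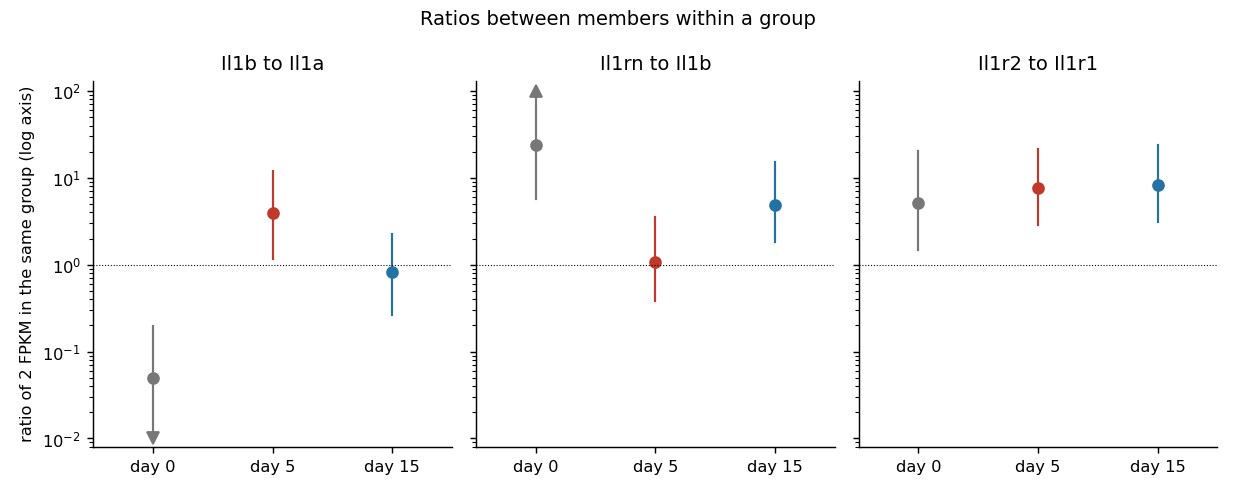
Ratio of 2 FPKM in the same group (log axis) for Il1b to Il1a, Il1rn to Il1b and Il1r2 to Il1r1; lines are the outer bounds from both intervals, and an arrowhead marks a bound that is 0 or has no limit because the Il1b interval reaches 0. Il1rn was 23.9 times Il1b at day 0, 1.06 times at day 5 and 4.92 times at day 15.

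Several rows share their locus with a gene on the other strand, and strandedness is not given. Il1bos, antisense to Il1b, had an FPKM of 0.0653, 1.57 (0 to 11.4) and 0.418 at days 0, 5 and 15. Gm14023, opposite Il1a, had 1.28, 0.890 and 0.796, and Bco2, opposite Il18, had 5.20, 1.77 and 3.30. Tex12, also opposite Il18, was at most 0.0424. Gm16894, opposite Il1r2, reached at most 1.59, and Gm20319, opposite Il1rap, at most 0.115. These rows were low beside the members, but reads of the 2 strands cannot be told apart in the overlap.

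The other ligands and receptors of the family were examined as a list of 11 genes. Of these, 8 reached an FPKM of 1 at day 5 or day 0, none was called higher, and 1, Il1f5, was called lower, with a median log2 ratio of 0.36 against -0.09 over all rows. The counts for day 15 over day 0 were again 0 higher and 1 lower, with a median of 0.43 against -0.10 over all rows. None was called for day 15 over day 5, with a median of 0.00 against -0.01. Against day 0, 3.42% of all rows tested were called higher and 2.5% lower at day 5. The shares at day 15 were 2.91% and 1.81%. Il1f5 encodes the IL-36 receptor antagonist. Its FPKM was 16.2 (6.79 to 25.5) at day 0, 0.434 (0 to 1.01) at day 5 and 1.61 (0.173 to 3.04) at day 15, which is 37.2-fold lower at day 5 than at day 0 between point values. The antagonist of IL-1 and that of IL-36 thus lay on opposite sides of day 0. The IL-36 agonist genes had smaller differences: Il1f9 (IL-36γ) stood at 16.7, 32.8 and 34.1 at days 0, 5 and 15, Il1f6 (IL-36α) at 2.26, 2.60 and 2.41, and Il1f8 (IL-36β) at 8.503, 2.93 and 10.4. None of the 3 was called. Il1rl2, the IL-36 receptor, had 20.8 (5.04 to 36.6), 49.8 (15.2 to 84.5) and 45.8 (13.2 to 78.4) and was not called.

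Most of these genes lie in clusters on mm10. The receptor cluster on chromosome 1 spans 477.6 kb from Il1r2 through Il1r1, Il1rl2, Il1rl1 and Il18r1 to Il18rap, the accessory chain of the IL-18 receptor. Each of its 5 rows had a higher value at days 5 and 15 than at day 0. Of all rows tested, 44.9% had a higher value at day 5 and 43.1% at day 15 than at day 0. In the cluster, Il1r2, Il1r1 and the shared row were called at day 5, and only Il1r2 at day 15. Il18rap, at 0.319 (0 to 0.802), 5.22 (0.699 to 9.75) and 1.06 (0 to 2.30) at days 0, 5 and 15, was not called. Il1r2 itself lies at 40074079 to 40125231 and Il1r1 at 40225080 to 40317257, both on the plus strand. The ligand cluster on chromosome 2 spans 198.3 kb from Il1f8 to Il1rn, where Il1rn occupies 24336853 to 24351494 on the plus strand, and its members lay on both sides of day 0. Outside these clusters, Il18 lies on chromosome 9 at 50554827 to 50581840, Il1rap on chromosome 16 at 26581704 to 26730117 and Il33 on chromosome 19 at 29925114 to 29960718, all on the plus strand.

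**Figure D4:**
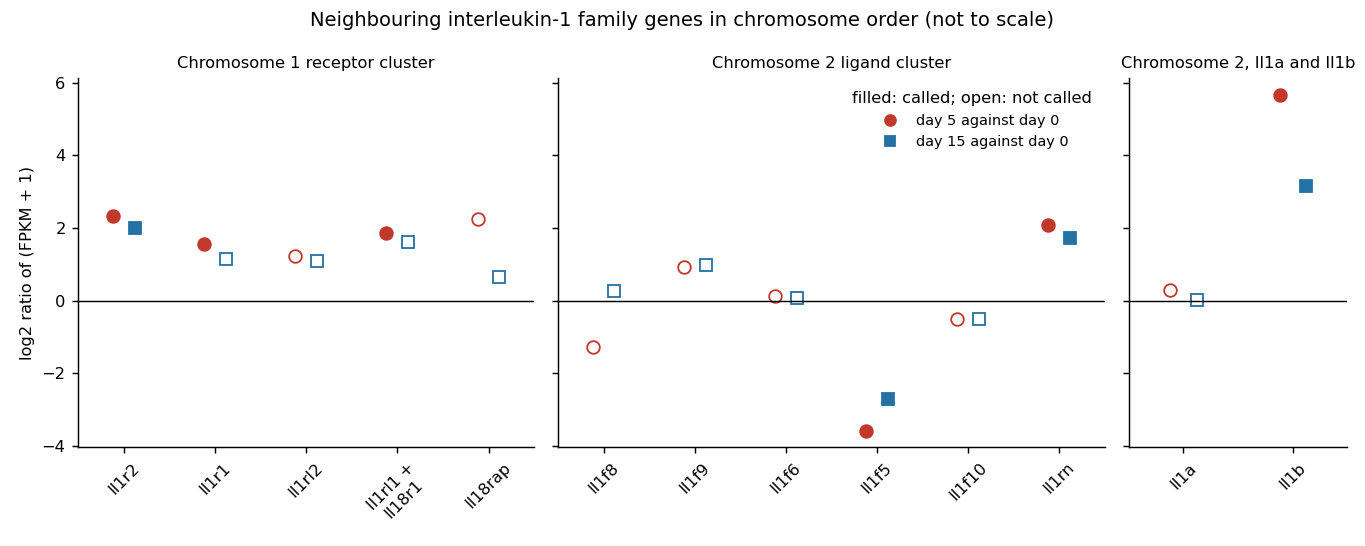
Log2 ratio of (FPKM + 1) against day 0, at day 5 (circles) and day 15 (squares), for family genes in chromosome order (not to scale); filled symbols are called. All 5 rows of the receptor cluster lie above 0, as did 44.9% of all rows tested at day 5 and 43.1% at day 15. Il1rl2 and Il18rap were not called, and at day 15 only Il1r2 of this cluster was. In the ligand cluster Il1f5 was called lower and Il1rn higher.

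The genes that process the precursors were taken as a list of 20. Of the 13 that reached an FPKM of 1 at day 5 or day 0, 4 were called higher at day 5 and none lower, with a median log2 ratio of 0.23 against -0.09 over all rows. These were Casp1, the protease that cuts IL-1β and IL-18, Casp4, which senses bacterial lipopolysaccharide inside cells, Nlrp3, the sensor of a well known inflammasome, and Mefv, which encodes pyrin. Casp1 had an FPKM of 1.14 (0 to 2.47) at day 0, 19.5 (8.81 to 30.2) at day 5 and 35.6 (18.4 to 52.9) at day 15. The intervals of Casp1 at days 15 and 5 overlapped, whereas Il1b was called lower at day 15 than at day 5. Nlrp3 followed another course, with 0.221 (0 to 0.490), 8.16 (3.37 to 12.9) and 1.24 (0.343 to 2.15), and was called lower at day 15 than at day 5. Casp4 stood at 0.426, 14.5 and 9.46, and was called higher at both times. The adaptor Pycard, at 23.8, 17.2 and 22.6, and the pore-forming Gsdmd, at 15.9, 18.8 and 19.1, were not called. With reference-gene scaling, 1 gene of the list, the calpain gene Capn1, was called lower at day 5 than at day 0. For day 15 over day 0, 2 of 13 were called higher and none lower (median 0.39 against -0.10). For day 15 over day 5, none was called higher and 1 lower (median 0.16 against -0.01). Shares called higher over all rows tested were 3.42% at day 5 and 2.91% at day 15 against day 0. For day 15 over day 5, 0.388% of all rows were called lower. The proteases Elane and Ctsg, which can also cut IL-1 family precursors, were listed at 0 in all groups.

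Some markers of myeloid cells were called higher in the same groups. Over the whole table, 3.42% of rows were called higher at day 5 and 2.91% at day 15 against day 0. Of 12 neutrophil markers, 8 reached an FPKM of 1 at day 5 or day 0 and 5 were called higher at day 5, and the summed FPKM of the 12 was 23.3, 420.0 and 106.9 at days 0, 5 and 15. Most of that sum was S100a8 and S100a9, which stressed epithelium also makes, at 140.3 and 242 at day 5. The neutrophil receptor Cxcr2 stood at 0.451, 9.54 and 2.99. Elane was listed at 0 throughout, Mpo at 0, 0.0194 and 0, Camp at 0 at day 15 and Retnlg at 0 at day 0. Of 13 macrophage and monocyte markers, none of which was at 0, 4 were called higher at day 5 and 7 at day 15 against day 0, with summed FPKM of 178, 705 and 1102. Most of the day 15 sum was Lyz2, at 684.7. Between days 15 and 5 no macrophage marker was called higher, and Cd14, at 19.9 at day 15 against 75.1 at day 5, was called lower. The part of these cells in the values of Il1b, Il1r2, Il1rn and the processing genes was not tested.

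Signalling from the receptor to NF-κB was covered by 20 genes on rows of their own, all of which were tested. None was called in either direction in any of the 3 comparisons, and the medians in order were 0.15, -0.02 and -0.13, for day 5 over day 0, day 15 over day 0 and day 15 over day 5, against -0.09, -0.10 and -0.01 over all rows. Few rows were called in the whole table too, with 3.42% higher and 2.5% lower at day 5 against day 0. With reference-gene scaling, 1 gene, Irak2, was called lower at day 5 than at day 0. The adaptor Myd88 had 17.9 (9.01 to 26.9), 32.2 (17.1 to 47.2) and 23.9 (12.4 to 35.4) at days 0, 5 and 15. The kinase gene Irak2 had 59.9 (29.5 to 90.2), 19.4 (7.48 to 31.4) and 25.4 (11.8 to 38.9), with bounds that overlapped by little at day 5. Overlapping pooled intervals do not show that a level was the same.

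Among 20 genes known to be induced by IL-1, 13 of the 17 that reached an FPKM of 1 at day 5 or day 0 were called higher at day 5 and none lower. Their median log2 ratio was 3.31 against -0.09 over all rows. The largest were Cxcl2 (88.2-fold) and Cxcl5 (50.3-fold), both neutrophil attractants, Csf3 (152-fold), a growth factor of granulocytes, and Mmp13 (83.2-fold), a collagenase. Of these 4, all but Cxcl5 had a day 0 interval that reaches 0, so their folds are imprecise. Il6, an acute-phase cytokine, was listed at 0 before the burn, and its FPKM at day 5 was 6.76 (0.859 to 12.7). Ptgs2, the inducible cyclooxygenase, stood at 1.49, 27.1 and 5.79 at days 0, 5 and 15. At day 15 against day 0, 7 of 16 were called higher (median 1.87 against -0.10), and against day 5, 5 of 17 were called lower (median -1.27 against -0.01). Those 5 were Cxcl1, Cxcl2, Cxcl5, Ptgs2 and Csf3. Of all rows tested, 3.42% were called higher at day 5 and 2.91% at day 15 against day 0. Between days 15 and 5, 0.388% of all rows were called lower. Mmp13, at 0.551 (0 to 1.29), 45.9 (22.7 to 69.1) and 99.95 (48.0 to 151.9), was not called between the later groups. Many other signals induce these genes.

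**Figure D5:**
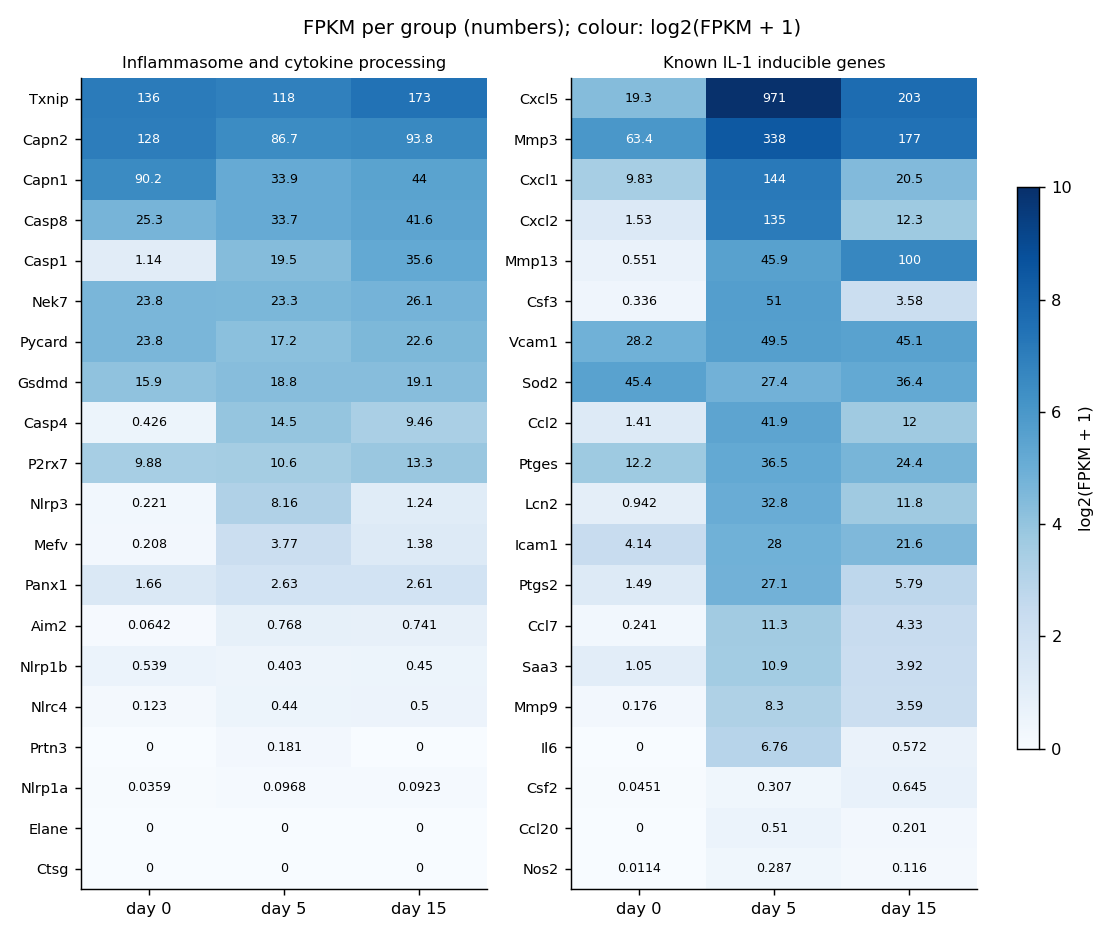
FPKM at day 0, day 5 and day 15 (printed numbers) for the processing genes and the IL-1 inducible genes, sorted by their highest value, with colour showing log2(FPKM + 1) from 0 to 10. Casp1 and Mmp13 had their highest value at day 15, though with intervals that overlapped those of day 5, and Nlrp3, Cxcl1, Cxcl2, Cxcl5 and Ptgs2 at day 5.

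IL-33 and IL-18 are best known to act on lymphoid cells and, for IL-33, mast cells. Of 11 type 2 lymphoid and T cell genes, only 3 could be tested at day 5 against day 0 and 4 in each other comparison, and none of these was called. Il13 was listed at 0 in all groups, Il4 at 0 at days 0 and 5, and Gata3 and Cd8a at 0 at day 0. Il5 was at most 0.148, Gata3 at most 0.229 and Cd3e at most 0.406, while Cd4, which macrophages can also express, stood at 0.611, 2.34 and 3.13 at days 0, 5 and 15. The summed FPKM of this list, 32.8, 56.9 and 42.8 at days 0, 5 and 15, came mainly from Areg, an epidermal growth factor receptor ligand that epithelium also makes, and Rora. All 8 natural killer and Th1 genes had an FPKM under 1 in every group, with sums of 0.254, 1.72 and 1.84. Ifng, which IL-18 is known to induce, was listed at 0, 0.0872 and 0.119 at days 0, 5 and 15. The 9 mast cell genes had summed FPKM of 38.7, 98.3 and 30.3, with Mrgprb2 at 0 at day 0. Of the 6 that could be tested, only Hdc, the histamine-forming enzyme that other myeloid cells also make, was called, higher at day 5 than at day 0 and lower at day 15 than at day 5. Hdc had an FPKM of 0.761, 61.5 and 4.70. Of all rows tested, 3.42% were called higher at day 5 against day 0, and 0.388% lower at day 15 against day 5. The receptor gene Kit stood at 21.5, 13.3 and 9.65, and the protease genes Cma1 at 4.76, 7.36 and 5.34, Cpa3 at 4.57, 6.68 and 4.90, and Mcpt4 at 4.16, 5.09 and 3.52. Fcer1a and Ms4a2, chains of the IgE receptor, were at most 0.278 and 0.154.

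The profiles most like those of Il1b and Il33 were sought among 6518 rows, by the distance between log2(FPKM + 1) values centred over the 3 groups. With only 3 pooled values per gene, this is a description of shape. The nearest to Il1b were Cxcl5 (distance 0.17), S100a8 (0.47), Plaur, the urokinase receptor (0.54), and the chemokine Ccl4 (0.61). Cxcl5 had 19.3, 971 and 203 at days 0, 5 and 15. The nearest to Il33 were Pf4, a platelet chemokine (0.11), Alox12e, a lipoxygenase (0.18), Col18a1, a basement membrane collagen (0.19), and Krt8, a keratin of simple epithelia (0.22). Pf4 had 11.5, 136.5 and 107 at days 0, 5 and 15.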

How the data were processed

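Polyadenylated RNA of whole corneas was sequenced in 6 samples, and the authors deposited 1 gene table of FPKM, in which fragments are divided by transcript length and sequencing depth. Per the file headers, each group has a status and an FPKM with lower and upper bounds. The columns pool the samples of a group, and 0 columns hold single samples. So no replicate spread, SD or p-value could be computed, and the designed rule for pooled columns was used. Per the submitters' processing notes, TopHat2 2.1.0, Bowtie2 2.2.6, Cufflinks 2.2.1, Cuffdiff and the mm10 build were used. How the groups were scaled to each other, the gene annotation and the strandedness are not given in the sources used here. Read totals are unknown.

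A call, higher or lower, needed status OK in both groups, intervals without overlap, a larger FPKM of 1 or more, and a log2 ratio of (FPKM + 1) of 1 or more in size. The pseudocount understates differences of low genes. Calls were made over the whole table. The rule was also run on simulated data whose spread was taken from the deposited intervals. Variation between replicates did not enter that run, so it does not show how reliable the calls are. A symbol with several rows was represented by the row with the largest summed FPKM, and genes whose row also carries a symbol from outside their list were not used. The members and gene lists were chosen with earlier results of these data known. All members are named; from each list the called genes with the largest log2 ratios (up to 4), and genes showing that a marker is near 0, are named. In addition, for Il1b and Il33, the 4 rows with the most similar centred log2 profile are named, and marker, IL-36, processing, signalling and T cell genes outside these rules were chosen after their values were seen. Positions are 1-based on mm10, with gene spans from GENCODE M21 (GRCm38). A planned comparison of protein sequences was not run. Python 3.11.15, numpy 2.4.6, pandas 2.3.3 and matplotlib 3.10.9 were used.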

Additional observations from a re-analysis of the deposited data

How the results depend on the processing

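Under the 10 alternatives, 59 counts of called members stayed within 1.5 times of their value and 1 did not: the count called lower at day 5 against day 0, which was 1 (Il18) when intervals were not used and 0 otherwise. Of the members' single calls, 259 were unaffected, 6 were lost and 5 were gained. Some of this was fixed in advance. Summing rows of the same symbol could alter only the lists, and it changed no call in the lists counted here. In those lists only Csf3 had 2 rows, so their unmoved counts under this alternative were also nearly fixed in advance. Neither dropping the minimum FPKM nor raising it to 5 could change a member call, because every member was above 5 in the higher group. These alternatives are counted among the unaffected and say nothing about the members. Without intervals, Il1rap (log2 ratio 1.42) also passed at day 5, and Il1r1 (1.16) and the shared Il18r1 and Il1rl1 row (1.63) at day 15. Il1rap passed at day 5 when groups were scaled by expressed rows (1.52). Scaling by reference genes, which shifts log2 ratios against day 0 by -0.20 at day 5 and -0.33 at day 15, ended the calls of Il1r1 (1.38) and of the shared row (1.66) at day 5, and a pseudocount of 5 that of Il1r1 (0.99). A minimum log2 ratio of 2 ended the calls of those rows at day 5 and of Il1rn at day 15. Over the whole table, in the order of the report, the numbers of rows called higher and lower without intervals were 1687 and 1722, 1270 and 1432, and 384 and 492, and with a minimum log2 ratio of 2 they were 308 and 199, 232 and 147, and 27 and 26. Of the list counts, 17 moved by more than 1.5 times and 223 did not. The moves arose only when intervals were not used or when groups were scaled to reference genes. Under that scaling they were the calls of Capn1 and Irak2 as lower at day 5 against day 0. Beyond the setting, the cause of these changes was not tested. Adding 0.1 to FPKM left all 15 ratios between members inside their bounds. Those bounds are much wider than the shift, so this check could hardly fail. Summing rows of the same symbol was chosen after the data were seen. No paired analysis was possible because the columns pool the samples of a group and carry no replicate number; leaving out a replicate was not run for the same reason. The wide intervals limit what can be called near an FPKM of 1.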
